A study of Rattus norvegicus with 2 samples.

Results

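The genes described here are the chemokine ligands and cyclooxygenase 2 (Ptgs2) of the deposited table, which lists genes that differed between 2 libraries made from bone marrow mesenchymal stem cells (bmMSCs) of the rat. Members were the table rows whose symbol is Ptgs2 or begins with Cxcl, Cx3cl or Ccl. There were 6 such rows among 2325: the chemokines Cxcl13, Cxcl6, Cxcl12, Cx3cl1 and Ccl27, and Ptgs2. Of these, 4 had been named when the rule was written, and it also found Cxcl12 and Ccl27. The tested library came from cells taken 10 days after transfection with Pdx1 and Ngn3, transcription factors of pancreatic and endocrine development, and the other from untransfected cells, the negative control. Both were plastic-adherent stromal cells of Sprague-Dawley rats at passage 3 to 5. The age of the rats, any pooling of animals and the vector are not stated in the labels. The control was untransfected, so the procedure and the introduced genes cannot be told apart. No day of harvest was available for the untransfected cells, so time in culture cannot be told apart from transfection either. Each group had 1 library, so no value below has a replicate check, and each interval covers counting error only.

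Chemokines are small secreted proteins that draw leukocytes along a gradient by binding receptors of the G protein-coupled class. They are grouped by the spacing of their first cysteines into the CC, CXC and CX3C families. Stromal cells of bone marrow are a known source of Cxcl12, which retains blood stem cells there. Cyclooxygenase 2 is the inducible enzyme that turns arachidonic acid into prostaglandin H, from which downstream synthases make prostaglandin E and other prostanoids. Chemokine genes and Ptgs2 are often induced together by interleukin 1, tumour necrosis factor and the transcription factors NF-kappaB and C/EBP.

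Cxcl13, Cxcl6 and Ptgs2 carried the largest single changes or the most reads of the set, and their start regions are printed because the motifs named in a later paragraph lie in them. The windows run from 250 bases before to 50 bases after the annotated start and come from RefSeq on the GRCr8 build, whereas the submitters' processing notes name rn4 for the reads. All 6 members matched a RefSeq window by gene identifier. Capitals mark matches to the kappaB consensus, the C/EBP motif TTNNGNAA and the TATA box TATAAA on either strand.
Cxcl13 (chr14:13917871-13918170, minus strand): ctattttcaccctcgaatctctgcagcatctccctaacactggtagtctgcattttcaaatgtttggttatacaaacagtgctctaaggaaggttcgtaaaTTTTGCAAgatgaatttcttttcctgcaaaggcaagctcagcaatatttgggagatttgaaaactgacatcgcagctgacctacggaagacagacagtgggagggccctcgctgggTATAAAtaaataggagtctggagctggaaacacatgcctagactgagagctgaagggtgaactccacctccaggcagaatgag
Cxcl6 (chr14:17596368-17596667, minus strand): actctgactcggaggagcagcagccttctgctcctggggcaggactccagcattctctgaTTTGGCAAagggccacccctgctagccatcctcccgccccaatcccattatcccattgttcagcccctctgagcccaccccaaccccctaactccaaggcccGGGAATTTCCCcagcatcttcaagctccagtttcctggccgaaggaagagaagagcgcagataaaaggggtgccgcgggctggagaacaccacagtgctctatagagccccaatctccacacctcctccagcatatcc
Ptgs2 (chr13:64713813-64714112, plus strand): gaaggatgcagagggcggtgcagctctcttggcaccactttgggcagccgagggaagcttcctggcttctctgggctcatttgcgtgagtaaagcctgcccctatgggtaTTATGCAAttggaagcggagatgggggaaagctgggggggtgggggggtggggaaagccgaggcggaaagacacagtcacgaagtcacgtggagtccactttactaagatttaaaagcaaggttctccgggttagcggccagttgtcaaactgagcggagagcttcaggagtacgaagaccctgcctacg

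All 6 members were higher in the transfected library, by 2.04-fold for Ptgs2 to 432-fold for Cxcl13. The table had been selected by its authors for changes of at least 2-fold, so 100% of its rows passed the same rule (a ratio of at least 2 and an interval without 1) and 63.5% of them were higher. A count of 6 higher among 6 is therefore given as a description. The median log2 ratio of the members was 2.39, against 1.24 over all 2325 rows and 1.77 over the 1476 higher rows. Summed over the members, the transfected library held 2443 RPM (reads scaled by library total) and the untransfected library 620 RPM. For the 5 chemokines alone the sum was 1651 RPM in transfected and 232 RPM in untransfected cells. In a bulk sample, a change in the number of cells of a type and a change in RNA per cell cannot be told apart.

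Library depth, implied by the deposited counts, lengths and RPKM (RPM divided by gene length in kilobases), was 7415094 reads for the transfected and 7800831 reads for the untransfected library. Scaling matters for the smaller changes: TMM and median-of-ratios factors, computed on rows selected for change, lowered every log2 ratio by 0.78 and 1.20 (shifts of -0.78 and -1.20). Among the 15 stromal markers 6 were listed, 4 higher and 2 lower, beside 63.5% higher and 36.5% lower over all rows. The higher ones were Kitlg (11.2-fold), Vcam1 (9.62-fold), Pdgfra (2.58-fold) and the member Cxcl12. Thy1 was 3.41-fold and Itgb1 2.04-fold lower, and with their many reads the summed level of the 6 was 3801 RPM in transfected and 5706 RPM in untransfected cells. None of those 6 was at 0 in either library. The endothelial marker Egfl7 was listed from 12 such genes, at 3.37-fold lower, and none of the 8 epithelial markers was analysed here. Of 27 leukocyte markers 3 were listed, summing to 7.28 RPM in transfected and 12.9 RPM in untransfected cells. Cd74, the class II invariant chain, had 5 transfected and 96 untransfected reads, and the macrophage marker Cd68 had 26 transfected and 5 untransfected reads. Cd4, a marker of helper T cells and rat macrophages, had 23 transfected and 0 untransfected reads. With 3 reads set in place of 0 in the untransfected library the ratio of Cd4 was 8.07, and the exact lower limit for 0 reads was 6.05. The part of leukocytes in the chemokine values was not tested, and the other 24 leukocyte markers were not analysed here.

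Cxcl13, which attracts B cells through the receptor Cxcr5 and is made by the stroma of lymphoid follicles, had 2463 reads in the transfected and 6 reads in the untransfected library. Its level was 292 RPKM (95% exact Poisson interval 280 to 304) in transfected cells and 0.676 RPKM (0.248 to 1.47) in untransfected cells. The ratio was 432, with an exact Clopper-Pearson interval of 198 to 1178 that is wide because of the 6 untransfected reads. By ratio Cxcl13 stood at place 3 of the 2325 rows, with rows at 0 reads set to 3. It moved to place 47 by transfected level, having been at place 2009 by untransfected level. Under every scaling tried the ratio was at least 188.

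Cxcl6 attracts neutrophils through the receptor Cxcr2. Per length it had the highest level of the 6 in both libraries, with 7007 transfected and 758 untransfected reads. Its level was 2138 RPKM (2088 to 2189) in transfected cells and 220 RPKM (204 to 236) in untransfected cells. Only 2 of the 2325 rows had a higher transfected level, whereas Cxcl6 was at place 72 in untransfected cells. By transfected reads, not divided by length, 31 rows had at least as many as Cxcl6, its own row included. The ratio was 9.72 (interval 9.02 to 10.5), and 5.68 under TMM and 4.23 under median-of-ratios scaling. The row rests on a 442-base expressed sequence tag read from the 5′ end of a clone, so its level per length refers to that fragment. Its deposited protein match is named ligand 5, and RefSeq gives Cxcl5 as a synonym of rat Cxcl6.

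Cxcl12, stromal cell-derived factor 1, had 2629 transfected and 982 untransfected reads. Levels were 65.4 RPKM (62.9 to 67.9) in transfected cells and 23.2 RPKM (21.8 to 24.7) in untransfected cells. The ratio was 2.82 (2.62 to 3.03), but 1.64 under TMM and 1.22 (1.14 to 1.32) under median-of-ratios scaling. Its direction was thus kept while its size fell below 2-fold.

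Cx3cl1, or fractalkine, is a membrane-anchored chemokine that is cut from the surface and binds the receptor Cx3cr1. It had 124 transfected and 60 untransfected reads, at 5.41 RPKM (4.50 to 6.45) in transfected and 2.49 RPKM (1.90 to 3.20) in untransfected cells. The ratio was 2.17 (1.59 to 3.01), but with median-of-ratios scaling it was below 1 (0.945, interval 0.689 to 1.31). Ccl27, a chemokine of skin that draws T cells through Ccr10, had 23 transfected and 2 untransfected reads. These correspond to 1.12 RPKM (0.712 to 1.69) in transfected and 0.0929 RPKM (0.0112 to 0.335) in untransfected cells, and the ratio of 12.1 has an interval of 2.99 to 106. Under TMM it was 7.06 (1.75 to 61.8) and under median-of-ratios scaling 5.26 (1.30 to 46.0). The Ccl27 row stands for a 2761-base cDNA with an apparent retained intron. In RefSeq the gene overlaps Il11ra1 and the noncoding locus LOC102547621, and the protocols name no strand-marking step, so reads of Ccl27 and of its overlapping neighbours cannot be told apart.

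Ptgs2 had 5871 transfected and 3025 untransfected reads. The levels were 180 RPKM (175 to 184) in transfected cells, place 89 of the table, and 88.1 RPKM (84.9 to 91.2) in untransfected cells, place 150. The ratio of 2.04 (1.95 to 2.13) lay close to the edge of the selection, with 45 of the 1476 higher rows at or below it. It became 1.19 (1.14 to 1.25) under TMM and turned to 0.888 (0.850 to 0.928) under median-of-ratios scaling. The direction of Ptgs2 therefore rests on the scaling, although its untransfected reads were the most numerous of the 6. Median-of-ratios factors came from rows selected for change, whose median log2 ratio was 1.24, and shifted every log2 ratio by -1.20. Every higher row with a log2 ratio below 1.20 turned with them, so selected rows cannot settle which direction holds.

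**Figure D1:**
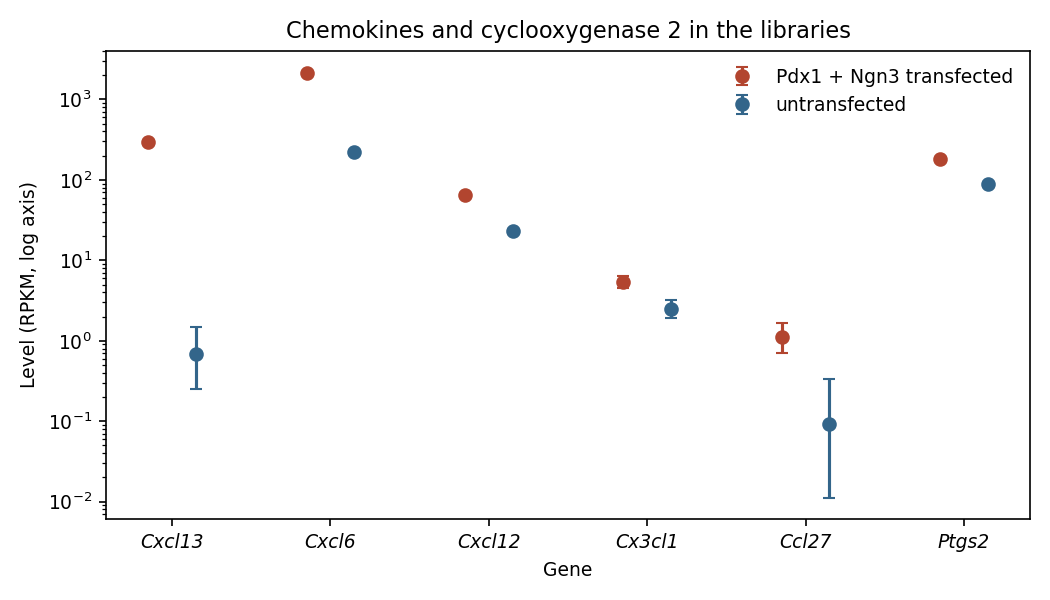
Level of each member in RPKM on a log axis, in transfected (red, left) and untransfected (blue, right) cells; bars are exact 95% Poisson intervals of 1 library each and are smaller than the point where reads are many. Cxcl13 stood at 292 RPKM in transfected against 0.676 RPKM in untransfected cells, and Cxcl6 was the highest in both; Ptgs2 and Cx3cl1 turn under median-of-ratios scaling.

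The order of levels per length differed between the libraries, with Cxcl6 measured on its 442-base tag. In transfected cells it ran from Cxcl6 through Cxcl13, Ptgs2, Cxcl12 and Cx3cl1 to Ccl27, and no neighbours in that order had overlapping counting intervals. In untransfected cells it ran from Cxcl6 through Ptgs2, Cxcl12, Cx3cl1 and Cxcl13 to Ccl27. There the intervals of Cxcl13 and Ccl27 overlapped. Cxcl13 made up 20.1% of the reads of the 5 chemokines in transfected cells and 0.332% in untransfected cells. Cxcl12 held 21.5% in transfected and 54.3% in untransfected cells, and Cxcl6 held 57.2% in transfected and 41.9% in untransfected cells. These shares need no library total, since the chemokine reads of a library are their own denominator. They are not divided by length, and the Cxcl12 row has 5423 bases against 442 for Cxcl6. Within a library they therefore do not rank the genes by level.

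**Figure D2:**
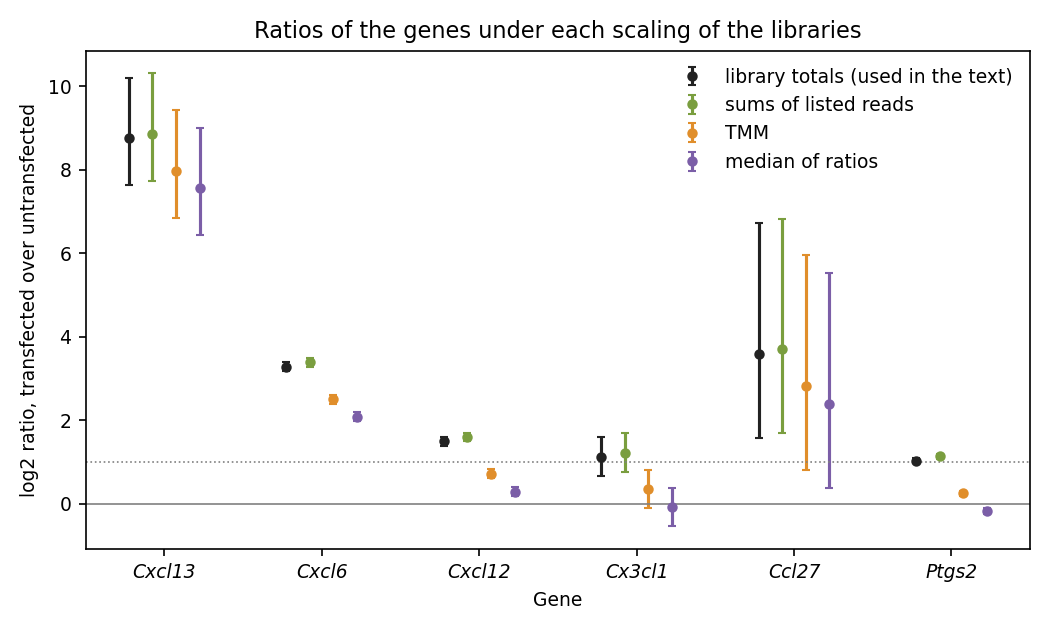
Log2 ratio of transfected over untransfected reads for each member under 4 scalings of the libraries, with exact 95% counting intervals; the solid line is no change and the dotted line a 2-fold ratio. The ratios of Cxcl13, Cxcl6 and Ccl27 stay above the dotted line under all 4, with the interval of Ccl27 crossing it under TMM and median-of-ratios scaling; Cxcl12 stays above the solid line, and Cx3cl1 and Ptgs2 fall to -0.081 and -0.17 under median-of-ratios scaling.

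Ratios between genes within a library are free of the choice of total, and 9 pairs were computed, chosen after the values had been seen. The level of Ptgs2 was 14.0 times that of Ptges, the inducible prostaglandin E synthase that acts after it, in transfected cells and 2.34 times in untransfected cells. The balance of this pair thus differed by 5.97-fold (exact conditional interval 4.82 to 7.42). Cxcl13 was at 4.46 times the level of Cxcl12 in transfected cells and at 0.0291 times in untransfected cells, a 153-fold difference (70.0 to 419). Against Cxcl6 the level of Cxcl13 was 0.137 in transfected and 0.00307 in untransfected cells, a 44.4-fold difference (20.3 to 122).

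Cxcl6 stood at 32.7 times the level of Cxcl12 in transfected and 9.47 times in untransfected cells, a 3.45-fold difference (3.10 to 3.84). The length of the Cxcl6 row, a 442-base tag, enters each ratio within a library and drops out of the difference between libraries. Ptgs2 was at 0.0841 times the level of Cxcl6 in transfected and 0.401 times in untransfected cells, or 4.76-fold less (4.36 to 5.20). For Ptgs2 over Cx3cl1 the ratio was 33.2 in transfected and 35.4 in untransfected cells, and the interval of their quotient, 0.676 to 1.29, includes 1. For Cx3cl1 over Cxcl12 the ratio was 0.0828 in transfected and 0.107 in untransfected cells, and that interval, 0.558 to 1.08, includes 1 as well. Il6, interleukin 6, stood at 1.04 times the level of Ptgs2 in transfected and 0.185 times in untransfected cells, a 5.60-fold difference (4.66 to 6.78). Il33, an interleukin 1 family cytokine, stood at 0.951 times the level of its receptor Il1rl1 in transfected and 0.0726 times in untransfected cells, a 13.1-fold difference (10.2 to 17.0).

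**Figure D3:**
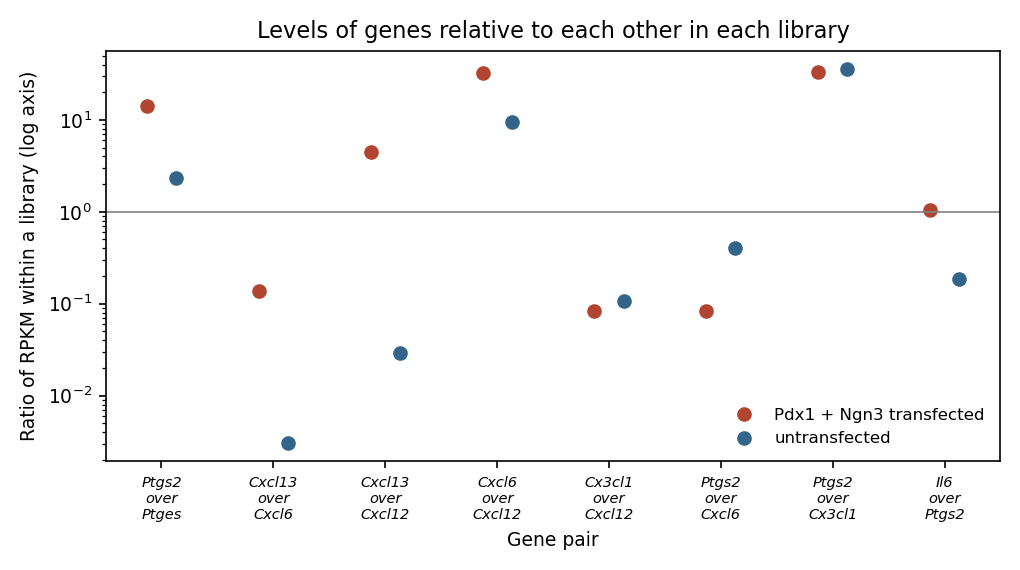
Ratio of the RPKM of gene pairs within each library on a log axis, transfected in red on the left and untransfected in blue on the right; the line marks equal levels. Ptgs2 over Ptges is 14.0 in transfected against 2.34 in untransfected cells, Cxcl13 over Cxcl12 is 4.46 in transfected against 0.0291 in untransfected cells, and Ptgs2 over Cx3cl1 is 33.2 in transfected against 35.4 in untransfected cells.

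Of the prostanoid pathway, 3 of 19 genes of synthesis and breakdown were listed. They were higher in 2 cases and lower in 1, beside 63.5% higher and 36.5% lower over all rows. By sign alone, median-of-ratios scaling left 1 above and 2 below a ratio of 1, since Ptgs2 turned. Pla2g2a, a secreted phospholipase that frees fatty acids from membranes upstream of cyclooxygenase, had 512 transfected and 53 untransfected reads. It was 10.2-fold higher (7.65 to 13.8), at 55.4 RPKM in transfected and 5.45 RPKM in untransfected cells. Ptges had 121 transfected and 372 untransfected reads, at 12.8 RPKM in transfected and 37.5 RPKM in untransfected cells, a ratio of 0.342 (0.276 to 0.421). Among 9 prostanoid receptors Ptger4, a prostaglandin E receptor that raises cyclic AMP, was listed, with 87 transfected and 35 untransfected reads and a ratio of 2.62 (1.75 to 3.99). The 10 genes of the lipoxygenase pathway, which also uses arachidonic acid, were not found by symbol or identifier and were not analysed here. Pla2g4a, the cytosolic phospholipase gene next to Ptgs2 in RefSeq, was not analysed here either.

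The chemokine list held 36 ligands, of which the 5 members were the listed ones. The remaining ligands and all 23 chemokine receptors, Cxcr5, Cxcr2, Cxcr4 and Cx3cr1 among them, were not analysed here. In RefSeq, Cxcl6 lies beside the chemokine genes Ppbp and Pf4, Cx3cl1 between Ccl17 and Ccl22, and Ccl27 next to Ccl19. None of these neighbours was found in the table by gene identifier. Of 18 genes whose products cut, bind or display chemokines, 5 were listed, 1 higher and 4 lower, beside 63.5% higher and 36.5% lower over all rows. Mmp2, a gelatinase that trims Cxcl12, was 2.44-fold higher, at 1118 RPKM in transfected and 459 RPKM in untransfected cells. Mmp3, stromelysin 1, was 8.45-fold lower, at 16.0 RPKM in transfected and 135 RPKM in untransfected cells. The heparan sulphate proteoglycan Gpc1 was 2.39-fold lower, and LOC691984, which RefSeq now names Gpc6, 2.32-fold lower.

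Among 32 genes of NF-kappaB signalling and its targets, 9 were listed. They were higher in 8 cases and lower in 1, beside 63.5% higher and 36.5% lower over all rows. Under median-of-ratios scaling 7 stayed above a ratio of 1 and 2 were below it, since Bcl3 turned. That count is by sign alone, without the 2-fold rule. Nfkb1, the p50 precursor, had 835 transfected and 346 untransfected reads, a ratio of 2.54 (2.24 to 2.89). Cebpd, a C/EBP factor induced in inflammation, was at 45.9 RPKM in transfected and 15.9 RPKM in untransfected cells (2.89-fold, 2.38 to 3.54). Il6 was at 186 RPKM in transfected and 16.3 RPKM in untransfected cells, and Sod2, the mitochondrial superoxide dismutase, at 159 RPKM in transfected and 55.2 RPKM in untransfected cells. The lower gene, Nos2, nitric oxide synthase 2, named after its values were seen, had 222 transfected and 485 untransfected reads. LOC100360982, now named Relb in RefSeq also named with its values known, was 2.39-fold higher (1.79 to 3.21).

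The list of interleukin 1 and tumour necrosis factor family signalling had 8 listed of 24, and all 8 were higher, beside 63.5% of all rows. None of the 8 was a tumour necrosis factor family ligand or receptor, and those genes of the list were not analysed here. By sign alone, without the 2-fold rule, 7 stayed above a ratio of 1 with median-of-ratios scaling, since Irak2 turned. Il33 had 3171 transfected and 71 untransfected reads, at 173 RPKM in transfected and 3.68 RPKM in untransfected cells (47.0-fold higher, 37.1 to 60.3). Il1rl1, its receptor ST2, was at 182 RPKM in transfected and 50.8 RPKM in untransfected cells (3.58-fold, 3.34 to 3.85). The shared co-receptor Il1rap was 2.62-fold higher and Tlr2, a receptor for bacterial lipoproteins, 3.42-fold higher. Il1rn, the interleukin 1 receptor antagonist, and Il1b were named after their values were seen. Il1rn had 388 transfected and 45 untransfected reads (9.07-fold, 6.65 to 12.6), and Il1b had 34 transfected and 6 untransfected reads (5.96-fold, 2.47 to 17.4). Per length, Il1b was at 3.42 RPKM in transfected and 0.574 RPKM in untransfected cells.

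The list of lymphoid stroma genes, the setting in which Cxcl13 is best known, had 3 listed of 15, all higher, beside 63.5% of all rows. Besides Cxcl13, which the list shares with the members, these were Vcam1, the adhesion molecule for leukocyte integrins, and Pdpn, podoplanin. Vcam1 had 247 transfected and 27 untransfected reads, at 10.9 RPKM in transfected and 1.13 RPKM in untransfected cells (9.62-fold, 6.46 to 14.9). Pdpn was at 435 RPKM in transfected and 209 RPKM in untransfected cells, a ratio of 2.08 that turned under median-of-ratios scaling.

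**Figure D4:**
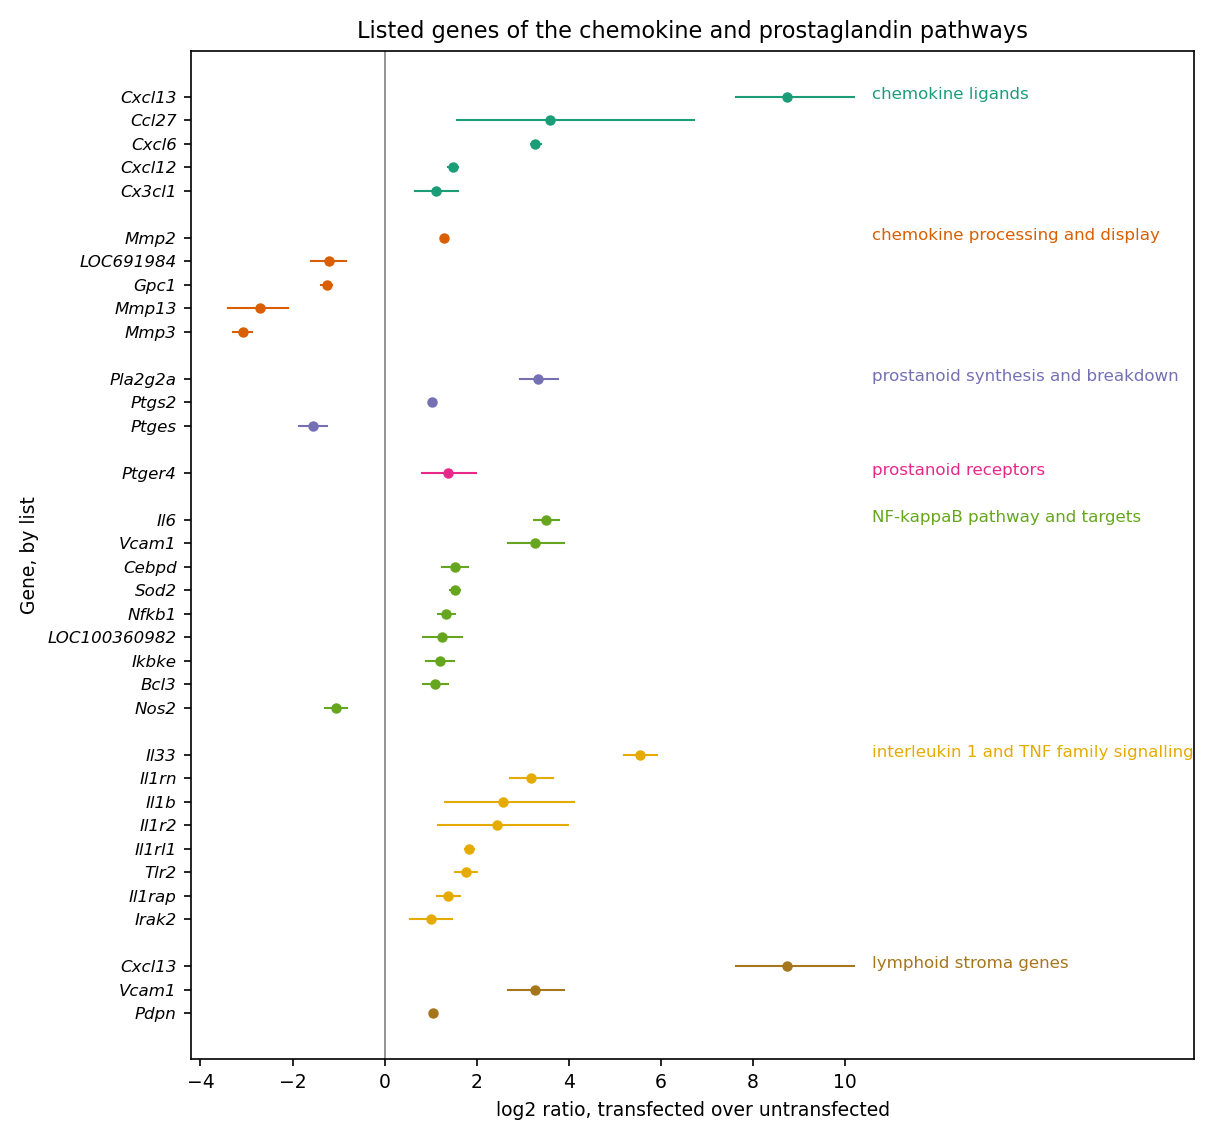
Log2 ratio of transfected over untransfected reads with exact 95% counting intervals for the listed genes of the chemokine, prostanoid, NF-kappaB, interleukin 1 and lymphoid stroma lists, 1 colour a list; the cell type marker lists and genes outside the table are not shown. Ptges, Nos2, Mmp3, Mmp13, Gpc1 and LOC691984 lie left of 0 and the other genes drawn lie right of it, of which Ptgs2, Cx3cl1, Bcl3, Irak2 and Pdpn turn under median-of-ratios scaling.

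In the deposited annotation the exact term cytokine activity was attached to 5 rows of the table, and these were the 5 chemokines. The cytokine genes Il6, Il33, Il1b and Kitlg, also in the table, did not carry it. The term inflammatory response was attached to 5 other rows, of which 1 was higher and 4 were lower, beside 63.5% higher and 36.5% lower over all rows. The median log2 ratio of these 5 was -1.29. The higher one was Vcam1 and the lower ones were Ptges, Hmox1, Thbs1 and Vnn1, named after their values were seen. Il6, Il1b and Tlr2, which were higher, did not carry this term. The term defense response was attached to 48 rows, Cxcl13 and Cxcl6 among them. Of these, 32 were higher (66.7%, beside 63.5% of all rows) and 16 lower, with a median log2 ratio of 1.40. By Euclidean distance of log2(RPKM + 1) over the 2 libraries, the genes nearest to Cxcl13 were Serpina3n (distance 0.630), Mfap4 (1.07) and Igfbp5 (1.58). Serping1 (0.743), Postn (0.782) and Ccdc80 (0.956) were nearest to Cxcl6. Pdk2, Pdgfra and Ppap2b lay nearest to Cxcl12, within 0.117, and Parm1, Abhd4 and Clic4 nearest to Ptgs2, within 0.494. Around Cx3cl1 lay Enpp3, RGD1308319 and Erp29, within 0.105, and around Ccl27 lay Nell2, Lrrn3 and Clcn4-2, within 0.066. With 2 libraries this likeness says no more than that both levels were similar.

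In the start regions, the C/EBP motif TTNNGNAA was found in 4 of the 6 members' windows (Cxcl13, Cxcl6, Ccl27 and Ptgs2), and in 41.3% of all 33469 windows of that length. In Ptgs2 it spans bases 140 to 133 before the start, in Cxcl13 bases 149 to 142 and in Cxcl6 bases 190 to 183. The kappaB consensus was found in Cxcl6 alone of the 6, and in 4.18% of all windows. Its matches on both strands overlap there and together span bases 88 to 78 before the start, the capitals of the second block in the printed window. The TATA box TATAAA was present in Cxcl13, at bases 33 to 28 before the start, and in Cx3cl1, and in 14.2% of all windows.

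No member's window held the E-box CAGATG, a form bound by neurogenins (16.6% of all windows), or the Pdx1-type motif CTAATG (8.68%). The AP-1 motif TGANTCA (7.33%) and the CRE TGACGTCA (1.83%) were not found in the 6 windows either. Both strands were searched for each motif. A match is a run of letters and not a binding site, and the absence of a match concerns these windows alone.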

How the data were processed

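RNA from 1 transfected and 1 untransfected culture was selected with oligo(dT) beads, fragmented, primed with random hexamers and sequenced on an Illumina GA instrument, per the labels' protocols. Genome build rn4 is named in the submitters' processing notes. The aligner and the counter were not given in the sources used here. The authors deposited whole-number read counts, RPKM computed from them, gene length, a log2 ratio of RPKM, and a p-value and false discovery rate from an unnamed test. In the deposited log2 ratios the smallest absolute value was 1.00, and the largest deposited false discovery rate was 0.000996, so the table is a selection.

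Ratios are reads over the implied library totals with exact 95% Clopper-Pearson intervals. A count of 0 was set to 3 reads. Intervals cover counting error only and treat each read as a separate molecule. PCR copies cannot be told from separate molecules here, so the intervals are too narrow if copies are present. With 1 library a group no test was made. Ratios of 2 genes within a library carry the exact conditional interval of the odds ratio. Alternatives were sums of listed reads, TMM (edgeR 4.0.16), median of ratios (DESeq2 1.42.0), log2(RPKM + 1), deposited RPKM, Wilson intervals, other call rules and a minimum of 30 reads. Computation used Python 3.11.15 and scipy 1.17.1, tested on simulated counts. Members and lists were chosen with earlier results of these data known. From each list the 4 listed genes with the highest mean RPKM were named, with the 3 genes nearest to each member. List genes were matched by deposited symbol or RefSeq identifier. Of the 2325 rows, 695 lacked a rat gene symbol or the identifier of a RefSeq rat gene. A list gene that was not found may therefore stand in such a row.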

Additional observations from a re-analysis of the deposited data

How the results depend on the processing

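Results are log2 ratios here. Under TMM scaling Cxcl6 became 2.51, Cxcl12 0.72, Cx3cl1 0.34 and Ptgs2 0.25. Under median-of-ratios scaling Cxcl13 became 7.55, Cxcl6 2.08 and Cxcl12 0.29, and the sign turned for Cx3cl1 (-0.081) and Ptgs2 (-0.17). Both scalings were computed on rows selected for change. With log2(RPKM + 1) Cxcl13 became 7.45 and Ccl27 0.96, since the added 1 exceeds their untransfected levels. With sums of listed reads as totals Ptgs2 became 1.13. The other alternatives, including the deposited RPKM and Wilson intervals, left each ratio within its counting interval. Members called higher numbered 3 in place of 6 with a ratio of at least 3, with TMM and with median of ratios, and the same 3 genes, Cxcl13, Cxcl6 and Ccl27, were called each time. Over the whole table the higher rows numbered 856 with a ratio of at least 3, 734 with TMM and 512 with median of ratios, against 1476. The lower rows stayed at 849 with TMM and with median of ratios. Of the calls, 46.4% with TMM and 37.6% with median of ratios were higher, against 63.5%. Genes changed by less than 2-fold are outside the table and could not become lower calls, so these percentages follow from the selection. The alternatives for Cxcl12 and Ccl27 were added after the data were seen. No paired analysis was possible because each group has 1 library, and for the same reason no library could be left out. Depth limits Ccl27 (25 reads in all) and the untransfected level of Cxcl13 (6 reads).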

Other observations

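Genes that carry a chemotaxis term in the deposited annotation went both ways, with 25 higher and 17 lower of 42. By sign alone, without the 2-fold rule, 21 were above and 21 below a ratio of 1 with median-of-ratios scaling. The 59.5% higher in this group compares with 63.5% of all rows. The genes named in this part were chosen after their values were seen. Among the higher ones, the adhesion molecule L1cam had 2084 transfected and 155 untransfected reads (14.1-fold higher, interval 12.0 to 16.8), the Slit receptor Robo1 1066 transfected and 143 untransfected reads (7.84-fold higher) and Sema5a 810 transfected and 112 untransfected reads (7.61-fold higher). Lbp, which binds bacterial lipopolysaccharide, was 3.99-fold higher at 72.6 RPKM in transfected and 18.2 RPKM in untransfected cells. On the lower side, Sema3f was 2.40-fold, Sema3b 2.26-fold and the actin regulator Enah 3.27-fold lower, and Reln, reelin, was 14.6-fold lower with 37 transfected and 568 untransfected reads, and Edn1, endothelin 1, 3.74-fold lower with 29 transfected and 114 untransfected reads.

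Of 6 rows with a prostaglandin term, 2 were higher and 4 lower, beside 63.5% higher and 36.5% lower over all rows, with Ptgs2 turning under median-of-ratios scaling. Tgfbr1, a TGF-beta receptor, was 3.34-fold higher. The lower ones were Ptges, Edn1, Cd74 and Sphk1, a sphingosine kinase with 38 transfected and 187 untransfected reads (4.68-fold lower).

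In the authors' deposited table the p-value of Cxcl13 is 1.88e-05, larger than that of Cx3cl1 at 3.50e-07, although Cxcl13 has the far larger ratio. In the authors' deposited table, 30 rows have 6 untransfected reads, and 11 of them share the p-value of Cxcl13 to the last digit. In these 11 rows the transfected reads run from 62 to 2463. The other 19 have 27 to 58 transfected reads and carry other p-values.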
